A study of Mus musculus with 6 samples.

Results

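The antioxidant genes described here were 38 genes of glutathione synthesis and use, of the NRF2 pathway, of the thioredoxin and peroxiredoxin systems and of superoxide and peroxide removal, compared between a wildtype and an NCK1/2 knockout mouse podocyte line. They were taken from a fixed list by symbol, using a probe set that names only that gene. Of the 38, 34 had such a probe set, among 30702 genes on the array. The probe sets of Gclm and Prdx1 also name a second locus, so these genes were not used, and Prdx5 and Prdx6 were not analysed here.

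Podocytes are the epithelial cells that wrap the capillaries of the kidney's glomerulus. Both lines were conditionally immortalized, kept for 10 days under differentiating conditions on type I collagen, and neither received any further treatment that the labels name. There were 2 groups of 3 arrays, wildtype and knockout of Nck1 and Nck2, the genes for the adaptor proteins that couple phosphorylated receptors to actin. Each genotype is represented by a single line, so that genotype and line cannot be told apart, and the sources used here give neither the strain and alleles nor how many clones or animals stand behind a line.

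NRF2, encoded by Nfe2l2, is the transcription factor that switches on most inducible antioxidant genes through the antioxidant response element. KEAP1 holds it in the cytoplasm and hands it to the proteasome until oxidants or electrophiles modify KEAP1. Its targets rebuild glutathione, reduce thioredoxin and peroxiredoxin, break down heme and conjugate electrophiles. Podocytes do not readily divide in the adult, and oxidant injury to them is a recognised feature of glomerular disease.

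Values are log2 intensities. Array medians over all genes lay from 7.08 to 7.22. Arrays of the same line correlated at 0.993 to 0.997 across genes, and arrays of different lines at 0.978 to 0.985. No detection calls were used. A mean at or below 7.78, the highest mean of the 23 background probe sets of the array, is called within the background range. The median of those probe sets was 4.48, and 62.9% of all genes had a mean over the 6 arrays at or below 7.78. The range is therefore wide, and lying within it is not a call of absence. Nck1 fell from 8.63 ± 0.10 to 8.12 ± 0.06 (mean ± SD, n = 3 arrays each), which is -0.51 on the log2 scale (limma, Benjamini-Hochberg adjusted p = 0.00391). Nck2, within the background range in both lines, was at 7.48 ± 0.13 and 7.24 ± 0.04 and did not pass (limma adjusted p = 0.0941). The labels do not place the deletions relative to these probe sets, which makes this a weak check of the genotypes. Of the podocyte markers, 6 were measured and 0 passed in limma, where 12.0% of all genes passed. An unadjusted limma p under 0.05 was reached by 0 of the 6 and by 7094 of all 30702 genes. Tjp1, named after its values were seen, was the 1 of the 6 whose arrays did not overlap. Its knockout arrays lay above its wildtype arrays, as for 12.6% of all genes. Both lines had Nphs1, which encodes nephrin, and Wt1 within the background range.

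In the knockout line Hmox1, the stress-inducible heme oxygenase gene, was higher, while Gclc and Gsr of glutathione synthesis and recycling, the sulfiredoxin gene Srxn1 and the superoxide dismutase genes Sod1 and Sod2 were lower. Gene by gene, 11 of the 34 genes passed a limma test with Benjamini-Hochberg adjustment over all 30702 genes at 0.05. Of these, 9 were lower (Gclc, Srxn1, Gstm1, Sod1, Gsr, Sod2, Prdx3, Nqo1 and Gss) and 2 were higher (Hmox1 and Gsto1). Over all genes tested 12.0% passed, 6.90% lower and 5.05% higher, against 32.4%, 26.5% and 5.88% of the antioxidant genes. Bright genes pass more often: among the 11389 genes with a mean above the background range 23.5% passed, against 10 of 25 antioxidant genes in that range (40.0%). An unadjusted limma p under 0.05 was reached by 7094 of all 30702 genes and by 20 of the 34 antioxidant genes. The counts of unadjusted p under 0.05 given below stand against that share of all genes. The median log2 fold change was -0.0585 over the 34 genes and 0.0116 over all genes. The sign of the antioxidant genes' median was not settled. It was 0.0061 with chromosome medians taken off, where the median of all genes was 0.0469. With dim genes left out it was -0.1667, where that of all genes was -0.0124. In both settings it lay below the median of all genes. A fold of at least 2 in either direction was reached by Hmox1 and Gclc alone among the genes that passed, where 1.67% of all genes passed with such a fold. In bulk RNA of this kind, fewer cells that express a gene and less RNA per cell cannot be told apart.

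**Figure D1:**
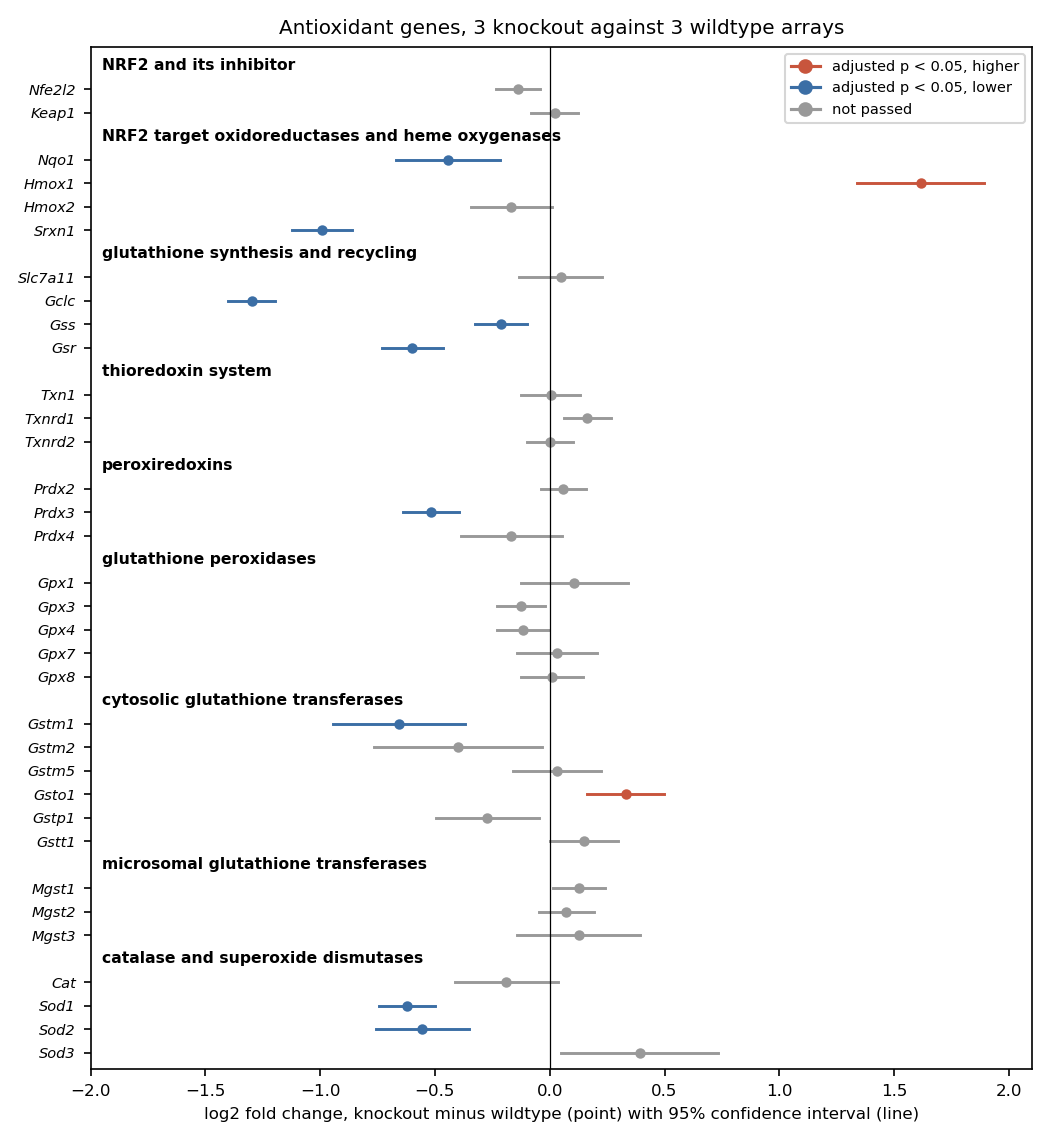
Log2 fold change (knockout minus wildtype, horizontal axis) of the 34 measured antioxidant genes, grouped by role, with points for the estimate and lines for its 95% confidence interval from limma. Hmox1 stands alone on the right at 1.62, Gclc and Srxn1 are farthest to the left at -1.30 and -0.99, and most grey intervals, of genes that did not pass, lie near 0.

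Neither regulator passed the limma test, and 1, Nfe2l2, had an unadjusted p under 0.05. Nfe2l2 read 10.29, 10.27 and 10.29 in the wildtype arrays and 10.15, 10.13 and 10.15 in knockout. All 3 knockout arrays lay below all 3 wildtype arrays, as 14.8% of all genes did, but the log2 difference of -0.14 (SE 0.04) did not pass (limma adjusted p = 0.0814). It passed with dim genes left out of the fit (adjusted p = 0.0373) and when the arrays were quantile-normalized again (adjusted p = 0.0478). Keap1, the gene for the inhibitor, had overlapping groups with means of 8.24 and 8.26 and a 95% confidence interval of the log2 difference from -0.08 to 0.12. On each array the Nfe2l2 value minus the Keap1 value was 2.01 to 2.07 in wildtype and 1.85 to 1.90 in knockout. These ranges do not overlap, which with 3 arrays against 3 gives a two-sided exact permutation p = 0.1, the smallest this design allows.

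Hmox1 encodes heme oxygenase 1, which cleaves heme to biliverdin, iron and carbon monoxide and answers to NRF2, to the heme-sensing repressor BACH1 and to other stress signals. It read 9.19, 9.29 and 9.22 in wildtype and 10.76, 10.67 and 11.11 in knockout. Every knockout array was well above every wildtype array, and knockout replicate 3 was the highest. The rise was 1.62 on the log2 scale, or 3.06-fold (SE 0.11, limma adjusted p = 0.000384), and 1.49 without knockout replicate 3. Its constitutive relative Hmox2 read 9.20, 9.17 and 9.19 against 8.93, 8.95 and 9.17, a log2 difference of -0.17 short of the threshold (limma adjusted p = 0.245). Knockout replicate 3 alone reached the wildtype level, and without it Hmox2 passed as lower (-0.24, limma adjusted p = 0.0334). The difference between Hmox1 and Hmox2 within an array moved by 1.78 from wildtype to knockout with no overlap (exact permutation p = 0.1, the smallest possible).

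Srxn1 encodes sulfiredoxin, which rescues over-oxidized peroxiredoxins and is among the strongly inducible NRF2 targets. It read 9.55, 9.56 and 9.53 in wildtype and 8.46, 8.59 and 8.60 in knockout. The groups lay far apart with little spread within each, and the change was -0.99 on the log2 scale (SE 0.05, limma adjusted p = 0.00014), 1.99-fold lower. Nqo1, the quinone reductase gene that is a standard readout of NRF2 activity, read 7.15, 7.43 and 7.43 in wildtype and 6.79, 6.97 and 6.91 in knockout. The groups did not overlap and Nqo1 fell by 0.44 on the log2 scale (SE 0.09, limma adjusted p = 0.0285). Both Nqo1 means were within the background range. Its call was lost when any array but wildtype replicate 1 was left out and when array medians were aligned, with adjusted p from 0.0612 to 0.119.

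The promoter of Srxn1 is shown because it was the most changed antioxidant gene with an entry in the reference table. Those of Sod1, Nfe2l2 and Txnrd1 are shown because they hold a match to TGACNNNGC, as Gstm5 and Mgst1 also do among the genes measured. These 4 were chosen after their values were seen. The sequences are the 250 bases before the gene start from RefSeq, build GRCm38.p6, written 5′ to 3′ on the gene's strand. Capitals mark TGACNNNGC, the form of the antioxidant response element core searched here, and TGANTCA, the AP-1 site, on either strand. Other forms of that core were not searched. The 2 patterns can overlap, since TGACTCAGC holds both, but they do not overlap in these sequences.
Srxn1, chr2:152105274-152105523, plus strand: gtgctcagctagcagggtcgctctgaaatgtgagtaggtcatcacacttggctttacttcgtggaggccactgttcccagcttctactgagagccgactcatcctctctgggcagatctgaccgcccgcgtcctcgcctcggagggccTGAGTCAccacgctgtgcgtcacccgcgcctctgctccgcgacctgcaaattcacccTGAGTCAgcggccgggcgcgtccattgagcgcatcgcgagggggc
Sod1, chr16:90220512-90220761, plus strand: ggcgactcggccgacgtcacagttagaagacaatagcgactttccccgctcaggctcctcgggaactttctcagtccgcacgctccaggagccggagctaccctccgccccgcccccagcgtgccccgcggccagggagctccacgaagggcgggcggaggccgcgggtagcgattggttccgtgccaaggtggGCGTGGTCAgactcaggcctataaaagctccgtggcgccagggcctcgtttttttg
Nfe2l2, chr2:75704664-75704913, minus strand: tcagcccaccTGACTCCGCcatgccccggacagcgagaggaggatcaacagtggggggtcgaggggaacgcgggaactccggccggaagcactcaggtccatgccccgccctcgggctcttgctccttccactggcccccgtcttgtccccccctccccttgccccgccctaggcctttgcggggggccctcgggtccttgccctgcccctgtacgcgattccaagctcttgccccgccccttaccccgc
Txnrd1, chr10:82858956-82859205, plus strand: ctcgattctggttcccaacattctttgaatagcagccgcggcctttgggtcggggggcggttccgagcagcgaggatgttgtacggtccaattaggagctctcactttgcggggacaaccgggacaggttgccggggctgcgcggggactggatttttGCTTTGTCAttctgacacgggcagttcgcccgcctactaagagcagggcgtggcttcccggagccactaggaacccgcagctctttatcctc
The Srxn1 window held 2 AP-1 matches, with first bases 102 and 45 before the gene start. With the 2 bases after it, the second reads TGAGTCAGC, which is 1 base away from TGACNNNGC and was not counted for that pattern. The Sod1, Nfe2l2 and Txnrd1 windows shown each held 1 match to TGACNNNGC. Txnrd1 has 3 windows in the table, and the other two had 0 matches. Of 33 listed antioxidant genes with an entry in that table, 7 (21.2%) had a match to TGACNNNGC in any of their entries, against 11.5% of 27025 genes with windows of the same length. For TGANTCA there were 5 of 33 (15.2%) against 7.82%. Of the 9 genes that fell, 7 had an entry, and 1 of the 7 had a match to TGACNNNGC and 1 to TGANTCA. A match describes letters in a window and not a bound site.

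Glutathione is made by glutamate-cysteine ligase and glutathione synthetase from cysteine that enters the cell as cystine, and glutathione reductase regenerates it after oxidation. Of the 4 measured genes of this route, 3 fell in knockout. Gclc, the catalytic subunit of the ligase and the rate-limiting step, read 12.40, 12.44 and 12.45 in wildtype and 11.16, 11.12 and 11.11 in knockout. These values varied by less than 0.1 within each line, and the change of -1.30 on the log2 scale (SE 0.04, limma adjusted p = 1.99e-05) was the largest fall among the antioxidant genes, 2.46-fold. Gsr, glutathione reductase, read 9.95, 10.04 and 10.00 against 9.35, 9.47 and 9.37. It fell by 0.60 (SE 0.05, limma adjusted p = 0.00107) with no overlap. Gss, glutathione synthetase, read 8.64, 8.71 and 8.63 against 8.48, 8.42 and 8.43, a smaller fall of 0.21 (SE 0.05, limma adjusted p = 0.0345). That call was lost under 7 of 14 alternatives, among them leaving out wildtype replicate 3 or any knockout array, with adjusted p up to 0.122. Slc7a11, the cystine importer and also an NRF2 target, had overlapping groups within the background range (log2 difference 0.05, 95% confidence interval -0.13 to 0.23).

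**Figure D2:**
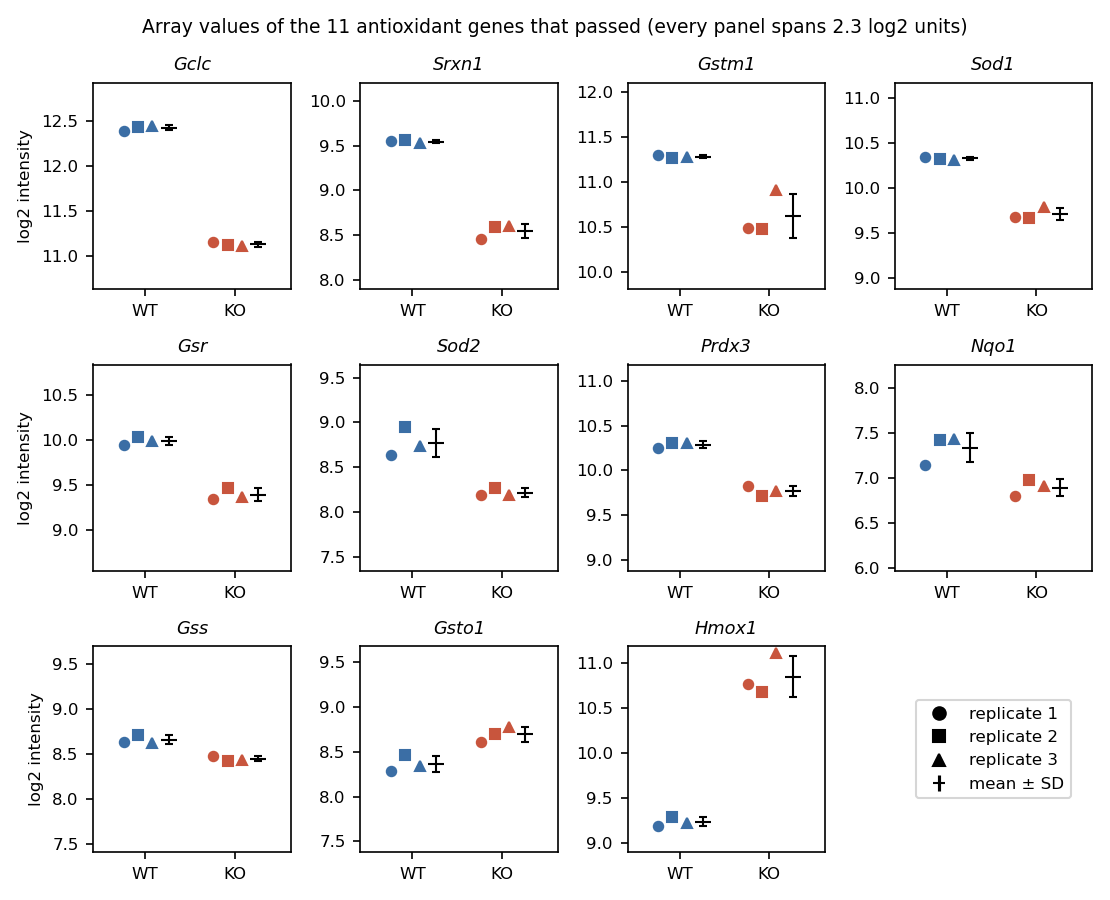
Log2 intensity (vertical axis) of each of the 11 genes that passed, in the 3 wildtype (WT, blue) and 3 knockout (KO, red) arrays, with a marker shape for each replicate and bars for mean ± SD. In every panel the 2 groups are apart; the difference between means is largest for Hmox1 and smallest for Gss, and knockout replicate 3 sits above the other knockout arrays for Gstm1 and Hmox1.

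The thioredoxin system passes electrons from NADPH to peroxiredoxins and other protein thiols. None of its 3 measured genes passed in limma, and 1, Txnrd1, had an unadjusted p under 0.05. Txn1, cytosolic thioredoxin, was at 11.61 ± 0.03 and 11.61 ± 0.07 with overlapping arrays. Txnrd1, the cytosolic thioredoxin reductase gene and an NRF2 target, read 10.38, 10.40 and 10.44 in wildtype and 10.59, 10.59 and 10.54 in knockout. These do not overlap, with knockout above, as for 12.6% of all genes, but the log2 difference of 0.16 (SE 0.04) did not pass (limma adjusted p = 0.0598, and 0.0265 with dim genes left out). The mitochondrial Txnrd2 differed by -0.0002 with both means within the background range.

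Of the peroxiredoxins, which reduce hydrogen peroxide with a reactive cysteine, 3 could be measured. Prdx3, the mitochondrial member, read 10.25, 10.31 and 10.31 in wildtype and 9.83, 9.71 and 9.78 in knockout. It fell by 0.52 (SE 0.05, limma adjusted p = 0.00138), without overlap. Cytosolic Prdx2 stood at 8.63 ± 0.02 and 8.69 ± 0.02, higher in every knockout array by 0.06 on the log2 scale (not passed, limma adjusted p = 0.516). Prdx4, the peroxiredoxin of the endoplasmic reticulum, is X-linked; its groups overlapped at 8.29 ± 0.16 and 8.13 ± 0.08. Bright protein-coding genes on the X chromosome had a median log2 fold change of -0.21, and with chromosome medians taken off Prdx4 differed by 0.05.

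The glutathione peroxidases, most of them selenoproteins, reduce peroxides with glutathione. None of the 5 measured members passed in limma, and 2, Gpx3 and Gpx4, had an unadjusted p under 0.05, as 7094 of all 30702 genes did. Gpx1, the main cytosolic form, read 11.17, 11.13 and 11.13 in wildtype and 11.13, 11.15 and 11.47 in knockout, so that knockout replicate 3 alone was high. Without that array the log2 difference of 0.11 became -0.0035. Gpx4, which repairs lipid peroxides and guards against ferroptosis, read 9.20, 9.23 and 9.18 against 9.08, 9.04 and 9.14, a log2 difference of -0.12 without overlap (limma adjusted p = 0.193). The secreted Gpx3 differed by -0.13, also without overlap, inside the background range, and chromosome 11, on which it lies, had a median of -0.10. Gpx7 and Gpx8, of the endoplasmic reticulum, had overlapping groups and log2 differences of 0.03 and 0.0089.

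Of 6 cytosolic glutathione transferases, which join glutathione to electrophiles, 1 fell, 1 rose and 4 did not pass. Gstm1, the major mu-class gene, read 11.30, 11.27 and 11.28 in wildtype and 10.49, 10.48 and 10.91 in knockout. It fell by 0.66 (SE 0.12, limma adjusted p = 0.0157), and by 0.80 without knockout replicate 3 (limma adjusted p = 0.00121). Leaving out any one of the other 5 arrays ended the call, with adjusted p from 0.064 to 0.0721. Its neighbour Gstm2 read 8.42, 8.53 and 8.44 against 7.84, 7.93 and 8.42. Knockout replicate 3 equalled the lowest wildtype value, and the log2 difference of -0.40 did not pass (limma adjusted p = 0.173) except without that array (-0.58, adjusted p = 0.00663). Gstm5, at 8.09 ± 0.02 and 8.12 ± 0.15, had overlapping groups. Between Gstm1 and Gstm5 the within-array difference moved by -0.69, and between Gstm1 and Gstm2 by -0.26, both without overlap (exact permutation p = 0.1 each, the smallest possible). The mu-class genes are close paralogs, and whether their probe sets measure them separately was not tested.

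Gsto1, an omega-class transferase that also reduces dehydroascorbate, was the second gene that rose. It read 8.28, 8.46 and 8.34 in wildtype and 8.60, 8.70 and 8.77 in knockout, a rise of 0.33 on the log2 scale (SE 0.07, limma adjusted p = 0.0272). The call was lost without wildtype replicate 1 or 3, without knockout replicate 2 or 3, and with array medians aligned (adjusted p from 0.0752 to 0.116). Gstp1, the pi-class transferase, read 10.68, 10.54 and 10.63 against 10.30, 10.20 and 10.53, -0.27 on the log2 scale, which missed the threshold (limma adjusted p = 0.131) except without knockout replicate 3 (-0.37, adjusted p = 0.0316) and when quantile-normalized again (-0.34, adjusted p = 0.0321). The Gsto1 value minus the Gstp1 value moved by 0.60 with no overlap (exact permutation p = 0.1, the smallest possible). Gstt1, a theta-class gene within the background range, differed by 0.15 and passed only without wildtype replicate 1 (adjusted p = 0.0348).

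The 3 microsomal glutathione transferases are membrane proteins of detoxification and of leukotriene synthesis. None passed in limma, and 1, Mgst1, had an unadjusted p under 0.05. Mgst1 was at 8.01 ± 0.04 and 8.14 ± 0.04, higher in every knockout array than in any wildtype array, by 0.13 on the log2 scale (limma adjusted p = 0.166; 0.0362 once chromosome medians were taken off and 0.0397 when quantile-normalized again). Both lines had Mgst2 and Mgst3 within the background range, with overlapping groups.

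Superoxide dismutases turn superoxide into hydrogen peroxide, and catalase breaks the peroxide down in peroxisomes. Sod1, the copper-zinc enzyme of the cytosol, read 10.35, 10.33 and 10.32 in wildtype and 9.68, 9.67 and 9.79 in knockout. Its fall of 0.62 on the log2 scale (SE 0.05, limma adjusted p = 0.000685) was 0.50 with chromosome medians taken off, since the bright genes of chromosome 16 had a median of -0.12. Sod2, the manganese enzyme of mitochondria, read 8.64, 8.94 and 8.73 against 8.19, 8.27 and 8.19. It fell by 0.56 (SE 0.08, limma adjusted p = 0.00772) without overlap. The within-array difference between Sod1 and Sod2 overlapped between the lines (exact permutation p = 0.7).

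The secreted Sod3 read 7.02, 6.49 and 6.95 in wildtype and 7.28, 7.14 and 7.21 in knockout, within the background range. Its knockout arrays were all above its wildtype arrays, by 0.39 on the log2 scale, short of the threshold (limma adjusted p = 0.156), and wildtype replicate 2 was the lowest. Cat, catalase, read 11.40, 11.55 and 11.52 against 11.12, 11.35 and 11.44, and its groups overlapped (log2 difference -0.19, limma adjusted p = 0.308).

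**Figure D3:**
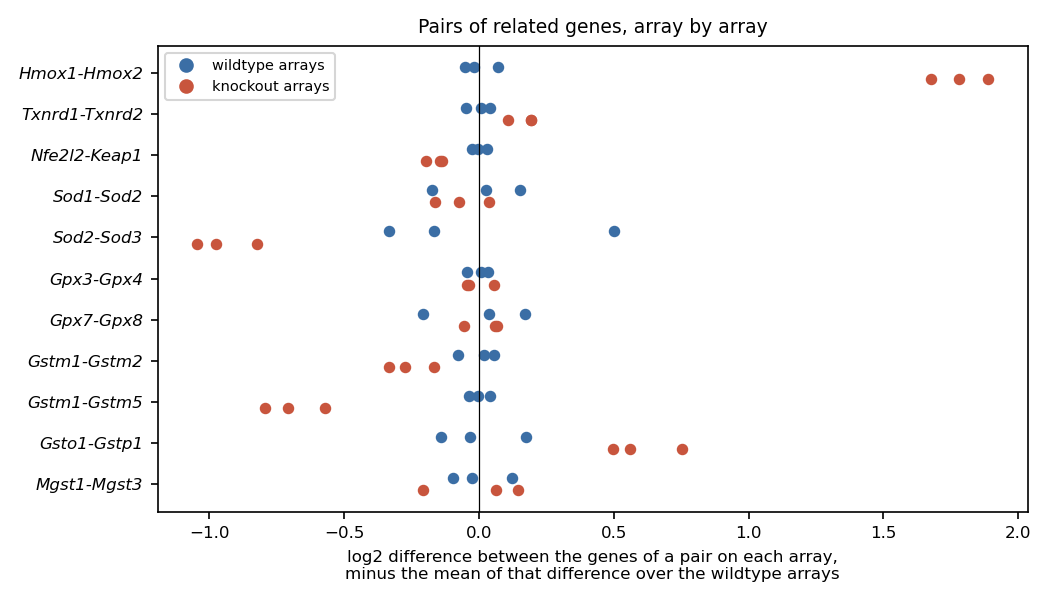
For each of 11 pairs of related genes, the log2 difference between the genes on each array minus the mean of that difference over wildtype arrays (horizontal axis), with wildtype arrays in blue and knockout arrays in red. In 7 pairs the colours do not overlap, most widely for Hmox1 and Hmox2 with a shift of 1.78; in the pairs of Sod1 with Sod2, Gpx3 with Gpx4, Gpx7 with Gpx8 and Mgst1 with Mgst3 they do.

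Of the 14 pairs listed, 11 could be formed. All 7 pairs without overlap had an exact permutation p = 0.1, which Benjamini-Hochberg adjustment over the 11 pairs took to 0.157, so the design cannot bring any pair under 0.05. In 2 of the 7, Txnrd1 with Txnrd2 and Sod2 with Sod3, the second gene was within the background range in both lines, and nothing is read from them. A within-array difference bears on whether 2 genes changed unequally, and does not show that either was steady.

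Within the knockout group the third array stood above the other 2 for many of these genes. It held the highest knockout value for 18 of the 34 genes (52.9%), against 31.4% of all genes. It exceeded both others by over 0.2 for 7 of them (20.6%), against 6.77% of all genes, a margin chosen after the values were seen. The 7 were Gstm2, Gstm1, Hmox1, Mgst3, Gpx1, Gstp1 and Hmox2. Leaving that array out kept 11 antioxidant genes past the threshold, 10 lower and 1 higher. Gss, Gsto1 and Nqo1 no longer passed, while Gstm2, Gstp1 and Hmox2 did. The wildtype arrays also departed from the order of all genes. Wildtype replicate 1 was the lowest of its group for 17 of the 34 genes (50%), against 29.2% of all genes. Wildtype replicate 2 was the highest for 17 (50%), against 33.5% of all genes.

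**Figure D4:**
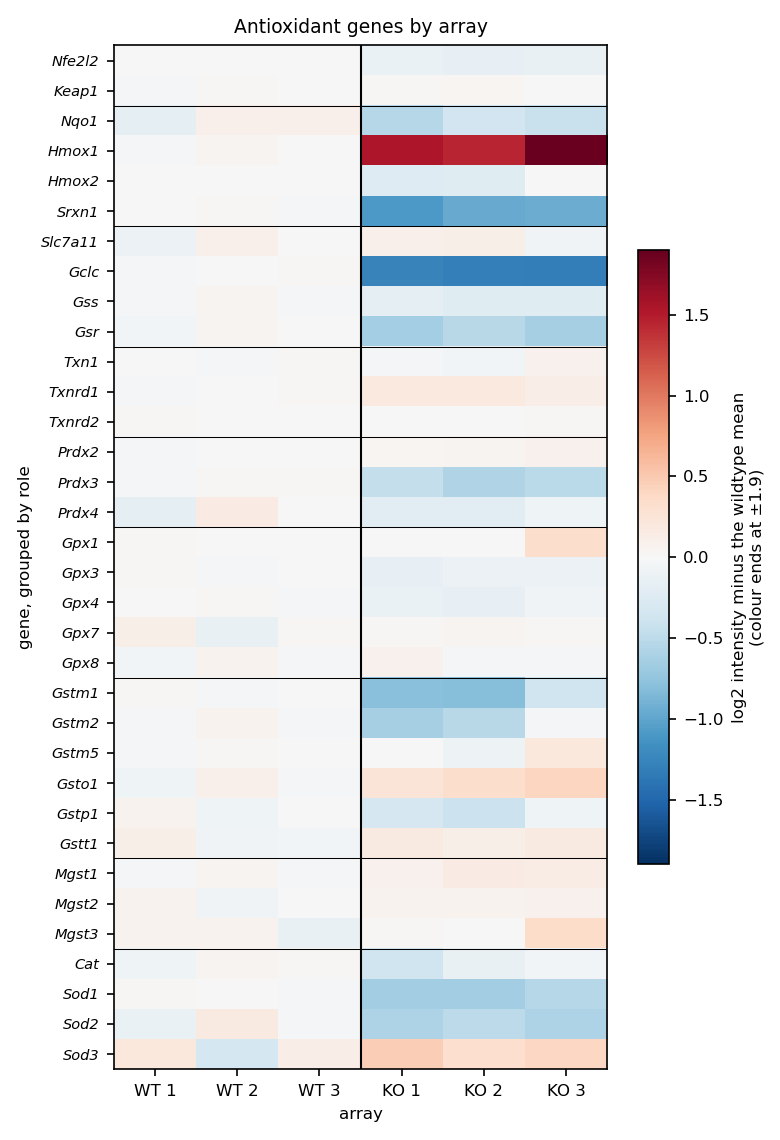
Each row is 1 of the 34 genes, grouped by role, and each column 1 array (WT wildtype, KO knockout); colour is the log2 intensity minus the gene's wildtype mean. Hmox1 is deep red and Gclc and Srxn1 deep blue in all 3 knockout arrays, and KO 3 is paler than KO 1 and KO 2 for Gstm1, Gstm2 and Hmox2 and redder for Gpx1 and Mgst3.

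A further 7 lists of the pathway, fixed by name with the earlier results known, were counted in the same fit, where 12.0% of all genes passed, 6.90% lower and 5.05% higher. The lists of thioredoxin enzymes, with 2 of 13 passing, and of NADPH oxidases, with 1 of 12, lie near that share. Among all genes with a mean above the background range 23.5% passed. Near that second share lie NRF2 partners and peroxisome biogenesis, with 3 of 12 each, and selenoprotein synthesis, with 1 higher and 1 lower of 9. Most genes of these last lists had both means above the background range. Of 12 NRF2 partners and regulators 3 fell, none rose and 9 did not pass, with a median of -0.14. Those that fell were Sqstm1 (-0.23, the p62 adaptor that draws KEAP1 into autophagy), Nfe2l1 (-0.23, the related factor NRF1) and Mafg (-0.19, a small MAF partner). All 3 lie on chromosome 11, whose bright genes had a median of -0.10. Nfe2l1 had the identical value of 10.39 on each knockout array, which understates the spread behind its call. Of 21 other NRF2 targets 6 fell, 5 rose and 10 did not pass, with a median of -0.03. Ugdh, which makes UDP-glucuronate, went from 9.57 ± 0.13 up to 10.70 ± 0.05, by 1.13 on the log2 scale. The efflux pump gene Abcc4 fell from 11.48 ± 0.07 to 10.53 ± 0.05 (-0.95), and the carbonyl reductase gene Cbr1 fell by 0.70. The ferritin light chain gene Ftl1, whose protein stores the iron that heme breakdown frees, rose by 0.49 (chosen after its value was seen). Among the other heme and iron genes of that list, Blvra fell (-0.17, both means within the background range). Fth1, Blvrb, Fech and Slc48a1 did not pass.

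Of 27 other glutathione enzymes 8 fell, 1 rose and 18 did not pass, with a median of -0.06, and 17 of the 27 had both means within that background range. Gsta4, which conjugates the lipid aldehyde hydroxynonenal, fell by 0.85, the prostaglandin D synthase gene Hpgds by 0.73 inside the background range, and the theta-class gene Gstt2 rose by 0.65, also within that range. Of 13 other thioredoxin and methionine sulfoxide enzymes 1 fell, 1 rose and 11 did not pass. Txnip, the inhibitor of thioredoxin, fell from 11.81 ± 0.01 to 11.01 ± 0.03 (-0.81), and the methionine sulfoxide reductase gene Msrb3 rose by 0.44. Of 9 selenoprotein synthesis genes Selenop, the plasma selenium carrier, rose by 1.49 within the background range, Scly fell by 0.35 and 7 did not pass.

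Of 12 genes of the NADPH oxidases and their partner proteins, Nox4 alone passed. This oxidase, abundant in kidney, fell from 8.74 ± 0.18 to 8.09 ± 0.08, a log2 fold change of -0.65 (limma adjusted p = 0.00789), and 10 of the 12 had both means inside the background range. Of 12 peroxisome biogenesis genes 3 fell and 9 did not pass: Pex7 (-0.55), Pex2 (-0.45, with a knockout mean within the background range) and Pex13 (-0.35). Each passing gene named in these lists had a limma adjusted p from 0.000122 to 0.0467. Some of these calls were lost under other settings. Mafg passed under 3 of 14 alternatives, Blvra under 3 of 13, Nfe2l1 under 6 of 13, and Pex2 and Pex13 under 7 of 14 each. Of 14 alternatives, Sqstm1 passed under 8, Gsta4 under 9, Ftl1 under 10 and Scly under 12. Ugdh, Abcc4, Cbr1, Hpgds, Gstt2, Txnip, Msrb3, Selenop, Nox4 and Pex7 passed under each alternative that could be run for them.

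**Figure D5:**
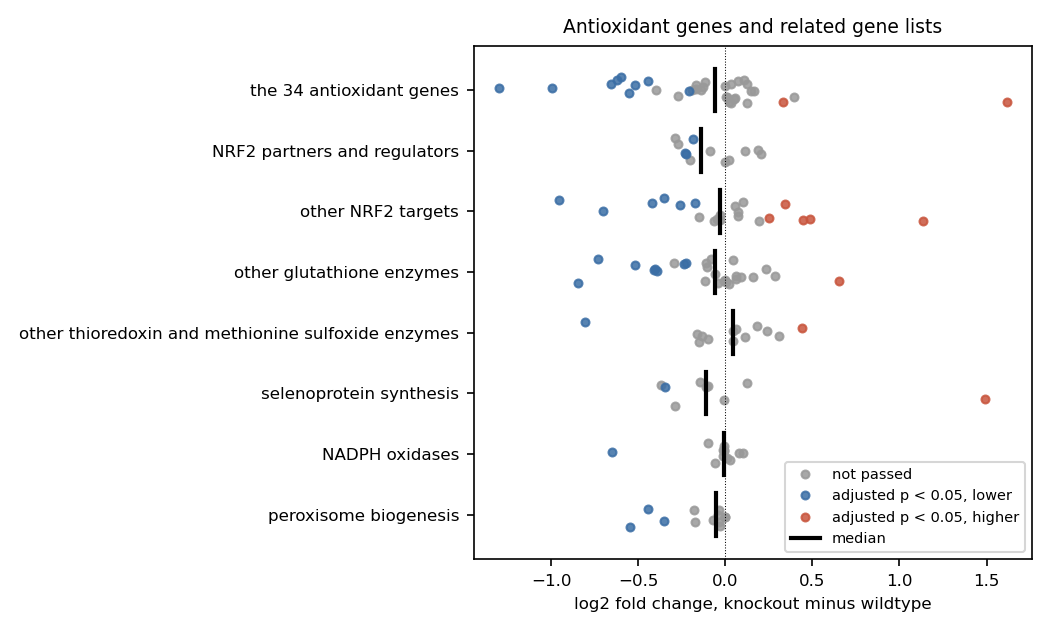
Log2 fold change (horizontal axis) of the 34 antioxidant genes and of the measured genes of 7 related lists, 1 point a gene, with a black bar for the median. All medians lie between -0.14 and 0.04, and passing genes (blue lower, red higher) stand to both sides in the lists of other NRF2 targets, glutathione enzymes, thioredoxin enzymes and selenoprotein synthesis.

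Markers of other kidney cell types also differed between the lines. Of 10 tubule markers 5 fell and 5 did not pass. Among them Aqp1 fell by 3.50 and Cdh16 fell by 1.50, and the mean level of the list ran from 8.85 to 8.97 in the wildtype arrays and from 8.22 to 8.28 in knockout (log2 intensity). Of 7 fibroblast, mesangial and smooth muscle markers 4 rose and 3 did not pass, Col1a1 by 3.03 and Dcn by 4.33 among them. The wildtype mean of Dcn, 6.43, was within the background range, so the size of its rise is not well measured. The mean level of the list ran from 7.54 to 7.66 in wildtype and from 9.37 to 9.46 in knockout. Of 6 macrophage markers Csf1r fell by 1.21, Cd68 rose by 0.57 (passing under 8 of 14 alternatives) and 4 were within the background range, Ptprc and Adgre1 included. All 6 endothelial markers were within the background range; 0 passed in limma and 1, Flt1, had an unadjusted p under 0.05. The part of these markers in the antioxidant results was not tested.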

How the data were processed

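Each of 6 arrays has a deposited log2 intensity per probe set. The submitters' processing notes name RMA and affy 1.44.0 as what the authors used, and the sources used here give no filter or probe definitions. RMA can give arrays identical fitted values, which understates spread; 1922 genes (6.3%) had identical values throughout a group. Of 72688 probe sets, 186 were controls, 31258 named 1 gene in the platform annotation after aliases were merged through a GRCm38.p6 gene table, 1492 named several and 39752 had no entry. The probe set with the highest mean was kept per gene, leaving 30702 genes.

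The lines were compared with limma 3.58.1 (R 4.3.3; lmFit, eBayes, no covariate, no filter), with Benjamini-Hochberg adjustment over all genes at 0.05; the script was tested on simulated data. Errors are SDs over 3 arrays, or limma SEs. The replicates are described as independent, with no batch named. The number of arrays limits the precision. Pairs of genes were compared by exact permutation. Chromosome medians came from protein-coding genes at or above the median intensity. Alternatives left out each array, added a replicate term, changed scaling, filter, variance prior, probe set rule, treatment of ties and threshold.

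The members and lists were chosen with earlier results of these data known. Named are all measured members, Nck1 and Nck2, the 3 most changed passing genes of each pathway list and the 2 of each marker list. Outside this rule, Ftl1, Blvra, Fth1, Blvrb, Fech, Slc48a1, Tjp1, Nphs1, Wt1, Flt1, Ptprc and Adgre1 were named after their values were seen. The rule for promoters (a passing gene with a log2 fold of at least 1 and a table entry) gave none, so those shown were chosen afterwards. No protein sequences were used. Figures used matplotlib 3.10.9 in Python 3.11.15.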

Additional observations from a re-analysis of the deposited data

How the results depend on the processing

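Of the 11 genes that passed, 7 (Gclc, Srxn1, Gsr, Sod1, Sod2, Prdx3 and Hmox1) passed under all 14 alternatives and at an adjusted p under 0.01, and 4 (Gss, Gstm1, Gsto1 and Nqo1) lost the call under at least 1. The count of antioxidant genes past the threshold ran from 7 to 11 with 1 array left out (7 without wildtype replicate 3 or knockout replicate 2), higher genes from 1 to 2, and it was 7 at an adjusted p under 0.01, with 1 higher. With array medians aligned 1 gene was higher. The count over all genes ran from 2079 (without wildtype replicate 3) to 3388 with 1 array left out, among them 2232 and 2311 without knockout replicates 1 and 2, and was 1948 at 0.01. The members' median ran from -0.0908 (without knockout replicate 3) to -0.0443 with 1 array left out, was -0.1667 with dim genes left out, which removes 9 of them, and 0.0061 with chromosome medians taken off. No scaling moved the median of all genes by more than 0.1.

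No gene that passed changed sign. Among the others the sign turned when arrays were quantile-normalized again (Gpx8 -0.047, Txn1 -0.047, Txnrd2 0.016), with array medians aligned (Txn1 -0.0011) and with chromosome medians taken off (Prdx4 0.046, Txnrd2 0.12). With 1 array left out, values that crossed 0 ran from -0.0035 to 0.17 for Gpx1, -0.039 to 0.090 for Gpx7, -0.027 to 0.043 for Gpx8, -0.048 to 0.098 for Gstm5, -0.0046 to 0.10 for Slc7a11, -0.038 to 0.031 for Txn1 and -0.0125 to 0.012 for Txnrd2. Where no value shows the cause, the cause was not tested.

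Whether the replicate numbers pair the arrays was not settled. Same-numbered arrays correlated in their deviations from the group means at 0.35, 0.28 and 0.04. With the replicate block 10 antioxidant genes and 3765 genes in all passed; Gss was the antioxidant gene lost (adjusted p = 0.0876).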
